A study of Mus musculus with 29 samples.

Results

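The 9 genes described here belong to the glucocorticoid axis of mouse liver and hippocampus. They were taken by symbol from the 24346 rows of the deposited expression table, and all 9 were found. The set holds the receptor itself (Nr3c1), an enzyme that makes its ligand inside the cell (Hsd11b1), and 7 genes that glucocorticoid hormone is known to induce (Fkbp5, Tsc22d3, Sgk1, Zbtb16, Mt1, Mt2 and Pdk4). The choice used no measured value of a contrast, although earlier results of these data were known when it was made.

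In rodents the adrenal cortex releases corticosterone, which follows a daily rhythm and rises during food deprivation. In a target cell, 11β-hydroxysteroid dehydrogenase type 1 regenerates active hormone from its inert keto form, and the hormone releases the glucocorticoid receptor from its chaperones so that it enters the nucleus and binds DNA. In liver the receptor drives glucose production and amino acid breakdown, and in hippocampus it takes part in the feedback that restrains the adrenal axis. Hormone was not among the measurements, so transcript levels are all that is reported.

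RNA was sequenced from both tissues of C57BL/6J males that had become obese over 10 weeks of high-fat feeding and were then kept for 4 weeks on a regimen. Mice kept on high-fat diet ate freely (HFD) or were fasted on alternate days (HFD-IF). Mice switched to control chow ate freely (CC) or were fasted intermittently (CC-IF). All mice had therefore been through the high-fat period, and no group stayed lean throughout. The 29 libraries analysed here were 4 HFD, 2 HFD-IF, 4 CC and 4 CC-IF from liver and 4 HFD, 4 HFD-IF, 4 CC and 3 CC-IF from hippocampus. The hour of tissue collection, and whether fasted mice were taken on a fasting or a feeding day, were not stated in the material analysed.

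Values are FPKM, fragments scaled by transcript length and library size, and log2 changes are on the log2(FPKM + 1) scale, which understates changes of low genes. Tests were limma's across all genes kept in a tissue (11497 in liver, 12857 in hippocampus; mean FPKM of at least 1), with Benjamini-Hochberg adjustment and a threshold of 0.05, and all 9 genes were kept in both tissues. Errors after ± are standard deviations for FPKM and standard errors for log2 changes. Estimated depth was 8.505 to 14.48 M (mega) fragments in liver and 11.01 to 34.28 M in hippocampus. The tissue labels held: Apoa1, a hepatocyte apolipoprotein, lay at 5464 FPKM or above in liver and at most 0.504 in hippocampus, and Camk2a, a neuronal kinase, at 721 or above in hippocampus and at most 0.15 in liver. Libraries are named by the index in their column, which starts at 0. Tissue was measured in bulk, so fewer cells of a type and less RNA per cell cannot be told apart.

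The 2 HFD-IF livers stood apart from each other. Library 1 had the highest number of genes above 0 of any liver library (16343, against 15087 in the lowest). It also had the highest estimated depth (14.48 M fragments), and the part of depth in that number was not tested. Its 6 markers of Kupffer cells and macrophages summed to 253 FPKM and its 6 of stellate cells and fibroblasts to 450.5 FPKM, against 61.6 and 161.5 FPKM in library 0 and at most 129.6 and 234 FPKM in the other 12 livers. Every contrast with the HFD-IF liver rests on this pair of libraries, and values without one of them are given for members whose change in such a contrast is described.

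Promoter sequences are shown for 3 of the genes, because the metallothioneins rose in liver and Sgk1 carried the clearest receptor motif among the windows searched. RefSeq windows on GRCm38.p6, from 250 bases before to 50 after an annotated start, were at hand for 7 of the 9 genes (14 windows). The full receptor element, AGAACA and TGTTCT set 3 bases apart, was searched on both strands with up to 2 mismatches in these letters, and 1.84% of the 32851 mouse windows held it. Among the 7 genes it was present in 2 windows, both of Sgk1, and without mismatch in 1 of them, 189 bases before the start. Sgk1 supplied 6 of the 14 windows, more than any other gene, and sequence outside the windows was not searched. The metal response element is bound by the zinc sensor MTF-1. A loose form of its core, TGCNCNC, was searched on both strands without mismatch. The first N, A or G in the usual core, was left free, and some of the Mt2 matches have T there. This pattern occurred at least 1 time in 51% of windows, at least 3 times in 7.1% and at least 5 times in 0.697%. The Mt1 window held 3 and the Mt2 window 6. Capitals mark the loose metal pattern on either strand in Mt1 (chr8:94178839-94179138, plus strand) and Mt2 (chr8:94172368-94172667, plus strand). In Sgk1 (chr10:21993640-21993939, plus strand) they mark the palindrome. A match of letters is a description of the window and not a measured binding site.
Mt1: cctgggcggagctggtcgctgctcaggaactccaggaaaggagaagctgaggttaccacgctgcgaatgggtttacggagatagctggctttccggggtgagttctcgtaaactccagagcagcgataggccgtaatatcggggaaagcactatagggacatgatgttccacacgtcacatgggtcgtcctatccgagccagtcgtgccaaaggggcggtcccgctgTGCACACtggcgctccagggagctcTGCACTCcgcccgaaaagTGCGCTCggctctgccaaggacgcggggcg
Mt2: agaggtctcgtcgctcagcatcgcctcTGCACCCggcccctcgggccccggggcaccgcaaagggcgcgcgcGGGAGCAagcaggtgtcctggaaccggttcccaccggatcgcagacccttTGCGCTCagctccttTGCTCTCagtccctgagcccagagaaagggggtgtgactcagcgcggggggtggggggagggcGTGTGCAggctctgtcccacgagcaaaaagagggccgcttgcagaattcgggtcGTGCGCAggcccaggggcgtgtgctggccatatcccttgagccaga
Sgk1: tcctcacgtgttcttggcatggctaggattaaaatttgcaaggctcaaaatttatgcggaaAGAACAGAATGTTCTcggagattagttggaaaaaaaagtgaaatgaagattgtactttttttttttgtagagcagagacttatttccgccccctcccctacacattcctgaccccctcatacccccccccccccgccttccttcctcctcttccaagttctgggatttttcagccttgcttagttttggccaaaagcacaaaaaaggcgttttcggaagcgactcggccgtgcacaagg

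**Figure D1:**
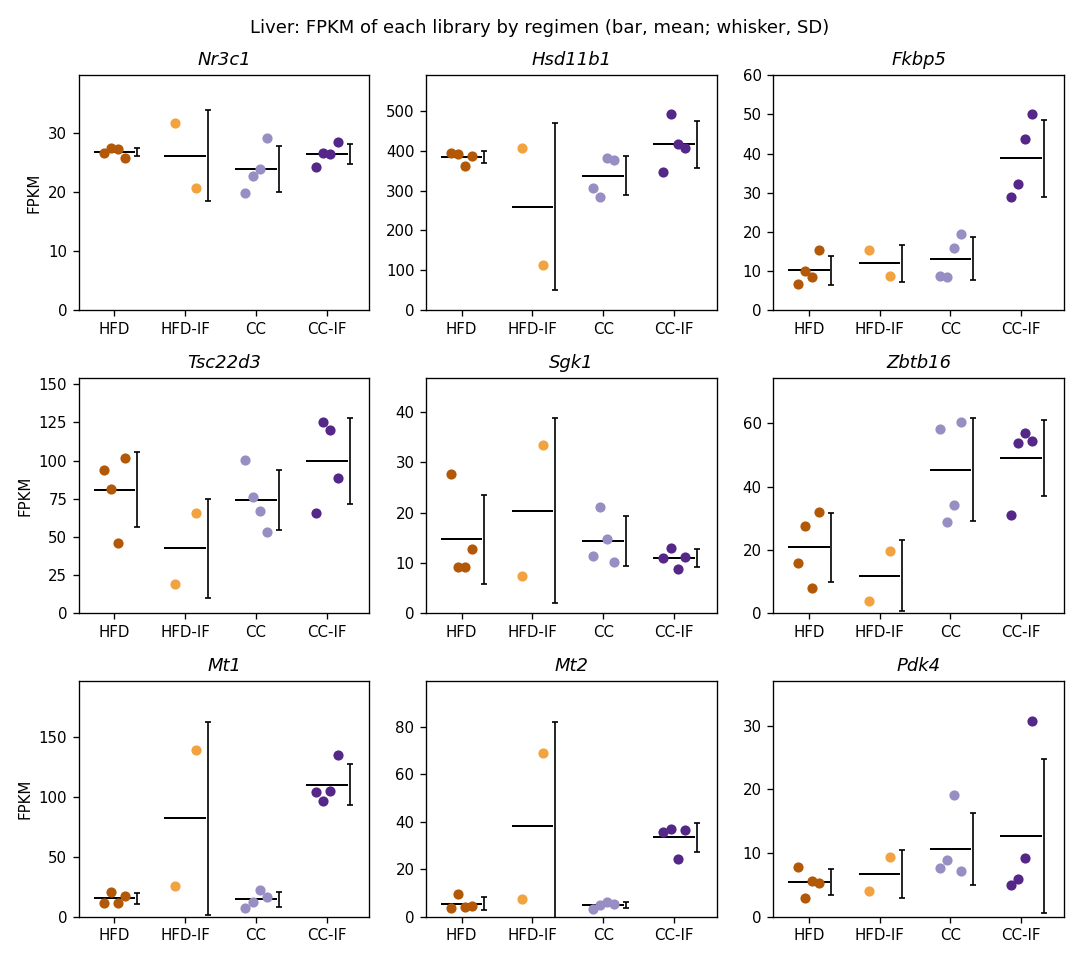
FPKM of the 9 genes in liver, one panel per gene and one point per library (4 HFD, 2 HFD-IF, 4 CC, 4 CC-IF), with bars for the group mean and whiskers for the standard deviation. Each vertical axis starts at 0, so lower whiskers that would pass below it are not drawn. The 4 CC-IF livers lay above all HFD and CC livers for Fkbp5, Mt1 and Mt2, and the HFD-IF pair was far apart for Hsd11b1, Tsc22d3, Sgk1, Zbtb16, Mt1 and Mt2.

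Nr3c1, the receptor, on chromosome 18 (39410545 to 39519421, minus strand, GRCm38), varied least of the 9 genes in liver. Its levels were 26.6, 27.4, 27.3 and 25.8 FPKM in the HFD livers, 31.6 and 20.7 in HFD-IF, 19.8, 22.7, 24.0 and 29.1 in CC, and 24.2, 26.7, 26.4 and 28.4 in CC-IF. All regimens overlapped. With fasting on chow its change was 0.15 ± 0.13 (95% interval -0.12 to 0.42; adjusted p = 0.43), and with the diet switch alone -0.17 ± 0.13 (-0.44 to 0.10; adjusted p = 0.512).

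Hsd11b1, which regenerates corticosterone, lies on chromosome 1 (193221634 to 193264075, minus strand) and overlaps Lamb3 on the opposite strand. Its mean liver level was the highest of the 9 genes in every regimen, although Mt1 exceeded it in HFD-IF library 1. It measured 393, 392, 362 and 387 FPKM in HFD, 308, 283, 382 and 376 in CC, and 348, 492, 417 and 407 in CC-IF. HFD-IF library 0 had 408 FPKM and library 1 had 112, the lowest of the 14 livers. Fasting on chow gave 0.30 ± 0.28 (-0.31 to 0.91; adjusted p = 0.475), so neither the receptor nor this enzyme passed the threshold in the contrast where target genes did.

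Fkbp5 encodes a co-chaperone that lowers the receptor's affinity for hormone and is itself induced by it. It lies on chromosome 17 (28399094 to 28517527, minus strand), where several noncoding genes overlap it. Liver levels were 6.66, 9.99, 8.55 and 15.4 FPKM in HFD, 15.3 and 8.67 in HFD-IF, 8.79, 8.43, 15.8 and 19.5 in CC, and 28.8, 32.2, 43.9 and 50.1 in CC-IF. All 4 CC-IF livers exceeded the highest of the other 10. Means rose 2.95-fold from CC to CC-IF, from 13.1 ± 5.45 to 38.8 ± 9.94 FPKM, a log2 change of 1.54 ± 0.30 (adjusted p = 0.00284). Against HFD the change was 1.86 ± 0.30 (adjusted p = 0.00115).

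Mt1 and Mt2 encode metallothioneins, small cysteine-rich proteins that bind zinc and copper and that both zinc and glucocorticoids induce. The genes are neighbours on chromosome 8, Mt2 at 94172664 to 94173568 and Mt1 at 94179082 to 94180327, both on the plus strand and 5513 bases apart. Their longest transcripts share 0 words of 31 nt, and an antisense gene overlaps Mt2. Mt1 measured 11.5, 20.4, 11.5 and 17.0 FPKM in HFD livers, 7.05, 12.5, 22.0 and 16.4 in CC, and 104, 96.0, 105 and 135 in CC-IF. The lowest CC-IF liver was thus far above the highest liver of either freely fed group. The mean rose 7.58-fold with fasting on chow, from 14.5 ± 6.30 to 109.9 ± 17.1 FPKM (log2 change 2.93 ± 0.43; adjusted p = 0.000498).

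Mt2 showed the same pattern over these groups at a lower level. Its values were 3.46, 9.60, 4.10 and 4.62 FPKM in HFD, 3.24, 4.95, 6.24 and 5.40 in CC, and 35.5, 37.0, 24.4 and 36.5 in CC-IF. The mean rose 6.72-fold from 4.96 ± 1.26 to 33.3 ± 6.01 FPKM (log2 change 2.53 ± 0.49; adjusted p = 0.00273), again with no overlap. The lowest Mt2 value corresponds to an estimated 15.1 fragments and a counting error of 25.8%, so its freely fed levels are the least precise of the set. Against HFD, Mt1 changed by 2.81 ± 0.43 and Mt2 by 2.48 ± 0.49 (adjusted p = 0.000862 and 0.00374).

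In the HFD-IF liver the metallothioneins divided the pair of libraries. Mt1 was 25.2 FPKM in library 0 and 139 in library 1, and Mt2 was 7.40 and 69.1. Library 0 lay above all HFD livers for Mt1 but within their range for Mt2. Fasting on high-fat diet gave 1.95 ± 0.53 for Mt1 and 2.00 ± 0.60 for Mt2 (adjusted p = 0.0939 and 0.117). Without library 0 these became 3.16 and 3.53 (adjusted p = 0.00113 and 0.000365), and without library 1 they were 0.74 and 0.47 and not called. For Hsd11b1 the change was -0.84 ± 0.35 (adjusted p = 0.234), -1.76 without library 0 (adjusted p = 0.000262) and 0.09 without library 1. Library 1 is the one with high macrophage and stellate markers, and their part in this result was not tested.

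Tsc22d3 (GILZ, chromosome X, 140539528 to 140600659, minus strand), an anti-inflammatory leucine zipper protein, is a standard receptor target in many tissues. It measured 94.0, 81.7, 46.2 and 101 FPKM in HFD livers, 100, 76.3, 66.9 and 53.1 in CC, 65.5, 125, 120 and 88.8 in CC-IF, and 19.4 and 65.5 in HFD-IF. All groups overlapped. The change with fasting on high-fat diet was -1.09 ± 0.44 (adjusted p = 0.217), and it was -0.24 without HFD-IF library 0 and -1.95 without library 1 (adjusted p = 0.78 and 0.112). On chow it was 0.42 ± 0.36 (-0.35 to 1.19; adjusted p = 0.432).

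Sgk1 (chromosome 10, 21882184 to 21999903, plus strand), a kinase that raises sodium and other ion transport, was 27.6, 9.16, 9.14 and 12.9 FPKM in HFD livers and 11.4, 21.1, 14.8 and 10.2 in CC. CC-IF livers had 10.9, 13.1, 8.76 and 11.2 FPKM, and HFD-IF 7.38 and 33.4. No regimen stood apart, and fasting on chow gave -0.32 ± 0.41 (-1.20 to 0.57; adjusted p = 0.62).

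Zbtb16 (PLZF, chromosome 9, 48654297 to 48836222, minus strand), a zinc finger repressor with a strong hormone response in several tissues, had its larger mean differences between the diets. Its levels were 16.0, 27.5, 8.12 and 32.0 FPKM in HFD, 4.04 and 19.8 in HFD-IF, 58.1, 28.9, 34.1 and 60.4 in CC, and 31, 53.7, 56.9 and 54.3 in CC-IF. Both chow groups had higher means than both high-fat groups, but neighbouring groups overlapped. The diet switch gave 1.18 ± 0.46 (adjusted p = 0.196), and CC-IF against HFD gave 1.32 ± 0.46 (adjusted p = 0.0562). The latter was called in 3 of 16 alternatives, with adjusted p from 0.0226 to 0.154. Against the HFD-IF pair the 4 CC-IF livers did not overlap, at 2.25 ± 0.57 (adjusted p = 0.0814), and the value was 1.23 without HFD-IF library 0 and 3.27 without library 1 (adjusted p = 0.19 and 0.0869).

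Pdk4 (chromosome 6, 5483351 to 5496309, minus strand), which switches off pyruvate dehydrogenase and so spares glucose in fasting, was called in no liver contrast. It measured 7.86, 2.86, 5.54 and 5.24 FPKM in HFD, 4.01 and 9.38 in HFD-IF, 7.59, 8.95, 19.1 and 7.08 in CC, and 4.94, 5.88, 9.21 and 30.6 in CC-IF. A single library held the highest value of each chow group, and the fasting change on chow was -0.02 ± 0.48 (-1.06 to 1.03; adjusted p = 0.986). Both chow groups had higher means than HFD, which averaged 5.37 FPKM, and the intervals leave room for a change. The diet switch gave 0.83 ± 0.48 (-0.22 to 1.87; adjusted p = 0.383), and CC-IF against HFD gave 0.81 ± 0.48 (-0.23 to 1.85; adjusted p = 0.247).

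Over the set, 3 of 9 genes were called higher with fasting on chow in liver, where 24% of all tested genes were called and 14.2% were called higher. The same 3 had no overlap between the groups, as was the case for 28.8% of all genes. CC-IF against HFD also called 3 of 9, with 23.7% of all genes called, and the 3 did not overlap, like 27.8% of genes. Against HFD-IF, 2 of 9 did not overlap (Fkbp5 and Zbtb16; 21.2% of genes), and between HFD-IF and HFD 1 of 9 (Mt1; 22.2%). The median change of the 9 was 0.30 on chow, against 0.022 for all genes. The diet switch called 0 of 9, with 2.3% of genes called, and at an unadjusted p under 0.05 it had 1 of 9 (Zbtb16), with 18.7% of genes. Fasting on high-fat diet called 0 of 9 with 1.32% of genes, and had 4 of 9 unadjusted with 17.8%. CC-IF against HFD-IF called 0 of 9 with 0.591%, and had 4 of 9 unadjusted with 18.2%. The interaction, fasting change on chow minus that on high-fat diet, called 0 of 9 with 1.11%, and had 3 of 9 unadjusted with 18.3%. A difference between the diets in the fasting response was thus called for none of the 9 by limma. For Mt1 it was 0.98 ± 0.68 (-0.50 to 2.45), for Mt2 0.53 ± 0.78 (-1.14 to 2.21) and for Fkbp5 1.31 ± 0.47 (0.29 to 2.34; adjusted p = 0.175). Without HFD-IF library 0 these were -0.23, -0.996 and 1.69, and without library 1 they were 2.19, 2.06 and 0.94, none of them called, so the sign for the metallothioneins depended on 1 library. The 1 gene called in the interaction when a library was left out was Hsd11b1, at 2.07 without library 0 (adjusted p = 0.000582), against 0.21 without library 1. CC-IF against CC and CC-IF against HFD share their CC-IF libraries, so they are not separate evidence.

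Within a regimen the 9 genes scattered widely in liver. Their median coefficient of variation was 36.9% in HFD, 34% in CC and 18% in CC-IF, against 12.4%, 12% and 13.1% for all tested genes. Nr3c1 had the smallest in HFD (2.71%), and Pdk4 the largest in CC-IF (95.7%).

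Other genes of the axis were read from fixed lists and are described by counts, with no test of a list. With fasting on chow in liver, the counts stand beside 14.2% of all tested genes called higher and 9.77% called lower. Of 6 tested genes of hormone handling, 3 rose in the fasted chow liver and 0 fell. Akr1d1, a 5β-reductase that inactivates steroid hormones, rose from 47.4 ± 4.87 to 134.5 ± 23.6 FPKM (log2 change 1.47 ± 0.15; adjusted p = 4.1e-05). Serpina6, the corticosteroid-binding globulin of plasma, rose from 127.4 ± 40.7 to 258.3 ± 38.1 FPKM (1.06 ± 0.28; adjusted p = 0.0157). Abcb1a, a membrane pump that exports steroids, rose from 0.804 ± 0.113 to 3.36 ± 1.78 FPKM (1.19 ± 0.31; adjusted p = 0.0146). With the diet switch Akr1d1 changed by -0.72 ± 0.15 (adjusted p = 0.027). Among 11 chaperones and coregulators of the receptor, including Hsp90 and Ncoa genes, 0 were called with fasting on chow.

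**Figure D2:**
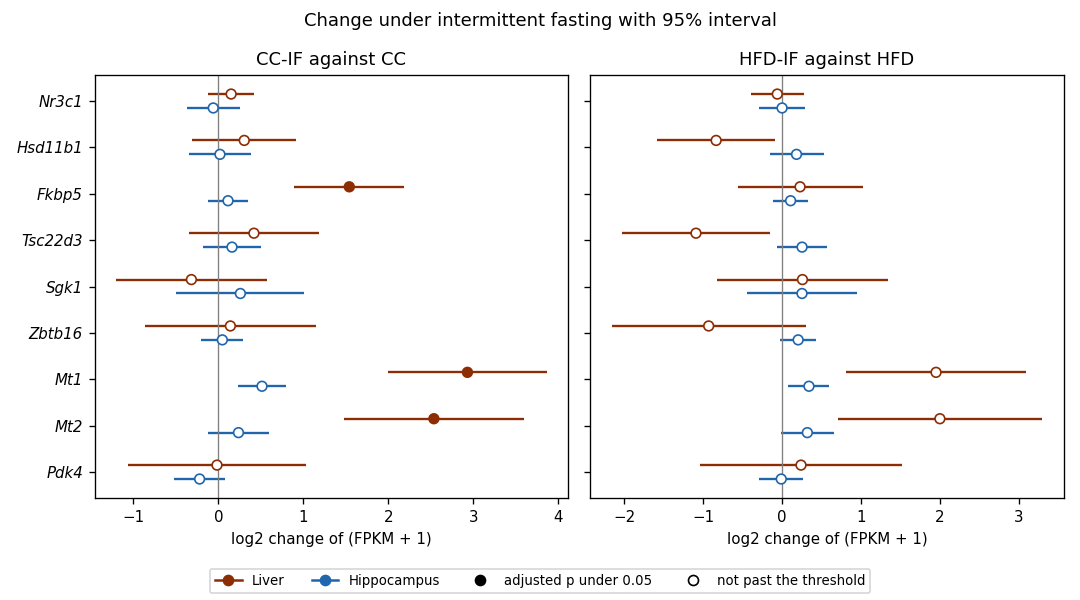
Log2 change of FPKM + 1 with intermittent fasting on chow (left) and on high-fat diet (right) for the 9 genes, in liver (brown) and hippocampus (blue), with 95% intervals and filled points where adjusted p was under 0.05. Filled points are liver Fkbp5 (1.54), Mt1 (2.93) and Mt2 (2.53) on chow, and intervals on high-fat diet are wider in liver, where that group had 2 libraries.

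Further targets of the receptor were read in the same contrast. Of 17 further induced targets tested in liver, 4 rose with fasting on chow and 0 fell, with a median change of 0.32. Plin4, a lipid droplet coat protein, rose by 1.31 ± 0.40, Per1, a clock repressor with receptor elements, by 1.10 ± 0.26, Sult1a1, a sulfotransferase, by 0.68 ± 0.17, and Nfkbia, the inhibitor of NF-κB, by 0.47 ± 0.13 (adjusted p between 0.00925 and 0.0302). Others in the list did not pass, among them Dusp1 at -0.24 ± 0.37 and Klf9 at 0.19 ± 0.23. Of 13 metabolic targets of liver, 4 rose and 0 fell, with a median of 0.35. Sds, a serine dehydratase of gluconeogenesis from amino acids, rose by 1.54 ± 0.27, Tdo2, which opens the tryptophan ring, by 0.64 ± 0.17, Klf15, a regulator of amino acid breakdown, by 0.50 ± 0.15, and Cps1, the entry enzyme of the urea cycle, by 0.49 ± 0.13 (adjusted p between 0.00159 and 0.0265). Tat, a classical hormone target in liver, was 782 ± 197 FPKM in CC and 849 ± 142 in CC-IF, and did not pass.

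Against HFD, 5 of the 13 metabolic targets rose in the CC-IF liver, where 12.4% of all tested genes were called higher. They included Pck1, the control enzyme of gluconeogenesis, at 1.02 ± 0.21 (adjusted p = 0.00521), and Irs2, an insulin receptor substrate, at 0.89 ± 0.24 (adjusted p = 0.0162). Irs2 was also the only one of the 13 called with the diet switch, at 1.08 ± 0.24 (adjusted p = 0.033). It was 12.4 ± 3.58 FPKM in HFD, 27.96 ± 9.55 in CC and 23.5 ± 3.35 in CC-IF.

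Zinc handling genes were read beside the metallothioneins. Of 6 tested, 0 were called higher and 2 lower with fasting on chow, while 4 of the 6 changes were positive and the median was 0.20. Slc30a10, an exporter of manganese in the zinc transporter family, fell from 17.1 ± 2.88 to 2.96 ± 0.836 FPKM (-2.20 ± 0.22; adjusted p = 4e-05), and Slc39a10, a zinc importer, fell from 2.41 ± 0.463 to 1.28 ± 0.244 FPKM (-0.58 ± 0.13; adjusted p = 0.00664). Slc30a1, a zinc exporter that MTF-1 induces together with the metallothioneins, lay between 8.56 and 13.6 FPKM in CC and between 13.3 and 17.5 in CC-IF, overlapping, and was not called.

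Lists around Pdk4 covered the enzyme complex it acts on and known regulators of the gene. Of 8 tested genes of pyruvate dehydrogenase regulation, 3 rose and 1 fell with fasting on chow. Pdk2, another kinase of the complex, rose by 0.77 ± 0.10 and Mpc1 and Mpc2, the pyruvate carrier of mitochondria, by 0.63 ± 0.13 and 0.40 ± 0.12, while Pdhb, an enzyme subunit, fell by 0.46 ± 0.14 (-0.46; adjusted p between 0.0002 and 0.0285 for the 4). Of 6 regulators known to induce Pdk4 apart from the receptor, 4 rose. They were Esrra (1.09 ± 0.08), Ppara (0.99 ± 0.21), Foxo1 (0.78 ± 0.14) and Foxo3 (0.61 ± 0.11), with adjusted p of at most 0.0044. Pdk4 itself was at 12.7 ± 12.1 FPKM in CC-IF against 10.7 ± 5.66 in CC.

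**Figure D3:**
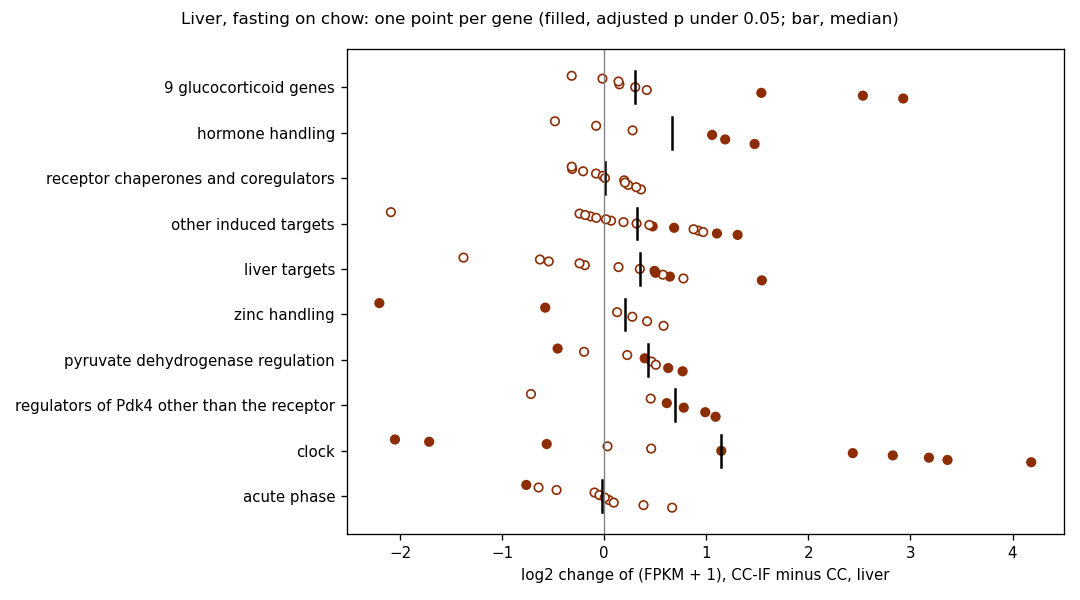
Log2 changes in liver with fasting on chow for every tested gene of the 9 and of the related lists, one point per gene, filled where adjusted p was under 0.05, with a bar at each list's median. The clock list spreads most widely, and the chaperone list has no filled point.

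Clock genes moved with the same contrast. Of 11 tested in liver, 6 rose and 3 fell with fasting on chow, with Per3 at 3.36 ± 0.32, Ciart at 3.18 ± 0.26, Tef at 2.83 ± 0.36 and Per2 at 2.44 ± 0.28 (adjusted p of at most 0.0002). Their summed level was 78.8 to 175.4 FPKM in CC and 263.6 to 327.6 in CC-IF. Corticosterone and several genes named above follow the time of day, and the part of the hour of collection in these results was not tested. Of 10 acute phase genes, which both hormone and inflammation induce, 0 rose and Fgb, a fibrinogen chain, fell by 0.76 ± 0.22 (-0.76; adjusted p = 0.0231). In the liver interaction the listed genes called were Akr1d1 (1.68 ± 0.23), Ciart (2.34 ± 0.41), Esrra (0.66 ± 0.12) and Pdk2 (0.78 ± 0.15). Their adjusted p lay between 0.0116 and 0.0365, where 1.11% of all genes were called. That contrast rests on 2 HFD-IF libraries.

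Cell type markers gave few calls in that contrast. Kupffer and macrophage markers had a median change of -0.54 with 1 of 6 called lower, and summed to 70.2 to 129.6 FPKM in CC and 50.7 to 75.5 in CC-IF. The 6 stellate and 6 endothelial markers had 0 called, with medians of 0.17 and -0.23. The 5 tested hepatocyte markers, Alb among them, had 0 called and a median of -0.34. Alb was listed below 0.1 FPKM in all 4 CC-IF livers, in CC libraries 0, 2 and 3 and in HFD library 3. It was at 29214 FPKM or above in the remaining 6 livers. Its value is thus not usable, and the median that includes it is not read as a change of hepatocytes. The part of these markers in the rise of Fkbp5, Mt1 and Mt2 was not tested.

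The liver genes closest in profile to the 3 that rose were found by Pearson correlation of log2(FPKM + 1) over the 14 livers, which mixes differences between regimens with scatter within them. Wasl (r = 0.962), D15Ertd621e (0.959) and Sh3glb1 (0.955) were closest to Fkbp5. Grn (0.983), Mt2 (0.975) and Cyp4a31 (0.961) were closest to Mt1, and Mt1 (0.975), Grn (0.966) and Pros1 (0.955) to Mt2. Grn averaged 83.5, 137.2, 80.6 and 144.9 FPKM in HFD, HFD-IF, CC and CC-IF.

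**Figure D4:**
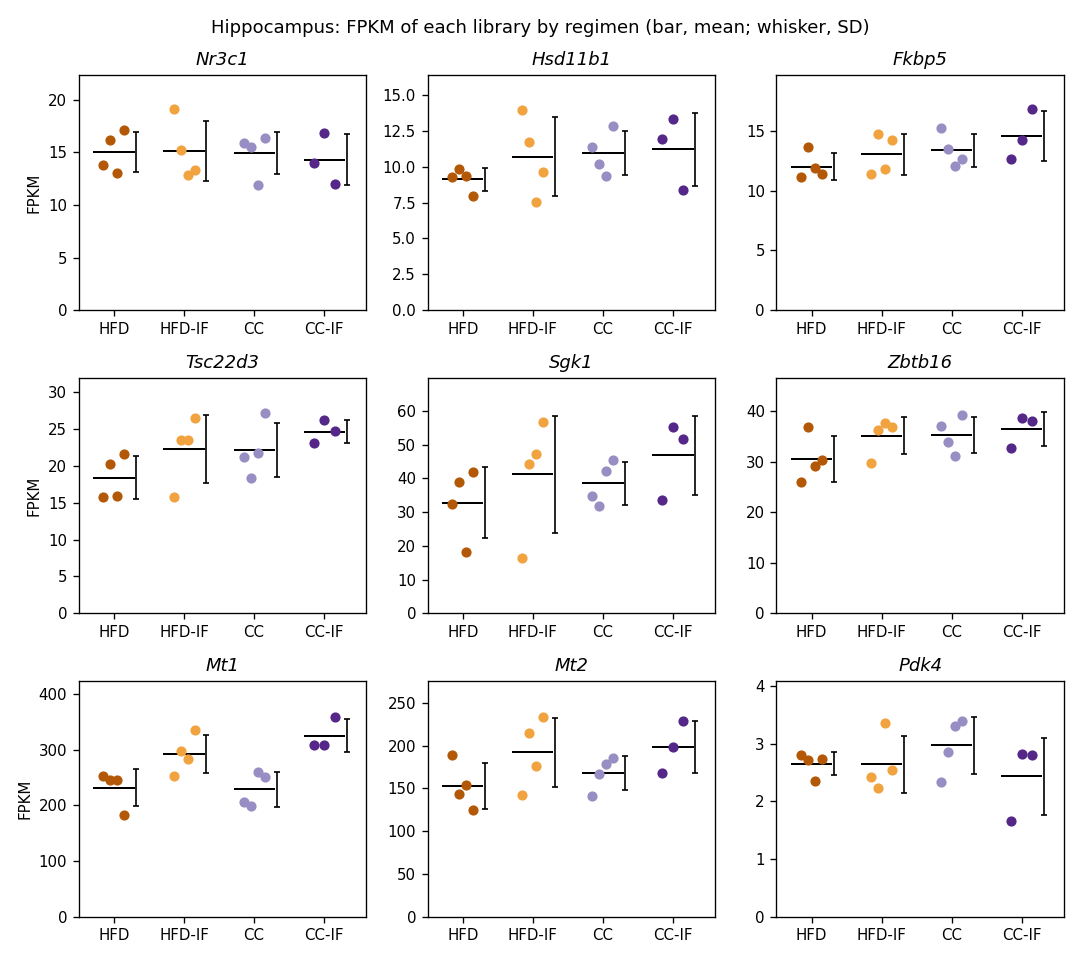
FPKM of the 9 genes in hippocampus, one point per library (4 HFD, 4 HFD-IF, 4 CC, 3 CC-IF), with bars for means and whiskers for standard deviations. The groups overlap in nearly every panel, and Mt1 is the gene whose 3 CC-IF libraries (308 to 360 FPKM) all lie above the HFD and CC libraries.

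In hippocampus 0 of 9 genes were called in any contrast. Over all 12857 genes the share called was 0.00778% with fasting on chow, where the only gene was the clock output gene Dbp (0.78 ± 0.10; adjusted p = 0.0156), and 0% in the other contrasts, the interaction included. At an unadjusted p under 0.05, limma gave 1 of 9 with fasting on chow (6.39% of genes), 1 with fasting on high-fat diet (7.6%) and 5 for CC-IF against HFD (8.8%). It gave 0 for the diet switch (3.56%), CC-IF against HFD-IF (2.98%) and the interaction (3.39%).

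Mt1 came nearest to a call. It measured 254, 245, 246 and 183 FPKM in HFD, 253, 299, 284 and 336 in HFD-IF, 206, 199, 260 and 252 in CC, and 308, 310 and 360 in CC-IF. The 3 CC-IF libraries lay above all CC and HFD libraries, whereas HFD-IF overlapped HFD. The fasting change on chow was 0.51 ± 0.13 (0.23 to 0.79; adjusted p = 0.367), and on high-fat diet 0.34 ± 0.12 (adjusted p = 0.582). It was the 1 gene of the 9 without overlap between CC-IF and CC, where 8.98% of all genes had none.

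Mt2 had 189, 143, 153 and 125 FPKM in HFD, 143, 215, 176 and 234 in HFD-IF, 141, 166, 179 and 186 in CC, and 168, 198 and 229 in CC-IF, with all groups overlapping. Its fasting change on chow was 0.24 ± 0.17 (-0.13 to 0.60; adjusted p = 0.917). Fkbp5 lay between 11.2 and 16.8 FPKM in all 15 libraries, and its change was 0.11 ± 0.11 (-0.13 to 0.35; adjusted p = 0.97).

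Tsc22d3 measured 15.8, 20.2, 16.0 and 21.7 FPKM in HFD, 15.7, 23.6, 23.5 and 26.5 in HFD-IF, 21.3, 18.4, 21.7 and 27.2 in CC, and 23.1, 26.2 and 24.7 in CC-IF. The CC-IF libraries lay above all HFD libraries (0.41 ± 0.16; adjusted p = 0.47). Together with Mt1 that made 2 of 9 genes without overlap between CC-IF and HFD, as had 9.21% of all genes.

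Sgk1 was the most variable of the 9 in the HFD and HFD-IF hippocampi, with coefficients of variation of 32.3% and 42.2%. It measured 32.5, 38.9, 18.1 and 41.9 FPKM in HFD, 16.4, 44.1, 47.3 and 56.8 in HFD-IF, 34.6, 31.8, 42.2 and 45.3 in CC, and 33.6, 55.2 and 51.6 in CC-IF. The lowest values belong to HFD library 2 and HFD-IF library 0, which were also among the 3 lowest for Tsc22d3.

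The remaining 4 genes are given by their ranges over the 15 libraries. Nr3c1 lay between 11.9 and 19.1 FPKM, Hsd11b1 between 7.54 and 13.9, Zbtb16 between 25.9 and 39.4, and Pdk4 between 1.66 and 3.40. None of these 4 was ordered by regimen without overlap between neighbours.

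Tsc22d3 and Sgk1 varied together from one hippocampus to the next, within regimens. After subtracting each regimen's mean of log2(FPKM + 1), Pearson's r over the 15 libraries was 0.873 (permutation p = 0.00011 within regimens; adjusted p = 0.00396 over the 36 pairs of the 9 genes) and Spearman's rho was 0.882 (adjusted p = 0.011). Without the 2 libraries in which Tsc22d3 lay farthest from its regimen mean, r was 0.825. Before subtraction r was 0.871 and rho 0.907 (adjusted p = 0.00144 and 0.00108). Mt1 and Mt2 also varied together, with a within-regimen r of 0.811 (permutation p = 0.0014, adjusted p = 0.0252) and rho of 0.836 (adjusted p = 0.011). Here r was 0.758 without the 2 libraries in which Mt1 lay farthest from its regimen mean. No other of the 36 pairs passed within regimens. Before subtraction, which lets differences between regimens in, Tsc22d3 with Zbtb16 also passed (r = 0.811, adjusted p = 0.00468; rho = 0.764, adjusted p = 0.016). Fkbp5 with Zbtb16 passed by r alone (0.71; adjusted p = 0.0273), and Sgk1 passed by rho alone with Zbtb16 (0.729; adjusted p = 0.024) and with Mt2 (0.679; adjusted p = 0.0464). Fkbp5, induced by the same receptor, had a within-regimen r of 0.31 with Tsc22d3 and 0.37 with Sgk1, and neither passed. Whether these differ from the r of Tsc22d3 with Sgk1 was not tested. The same 36 pairs were examined over the 14 livers, where none passed within regimens. There r within regimens was 0.651 for Tsc22d3 with Sgk1 and 0.91 for Mt1 with Mt2 (permutation, adjusted p = 0.674 and 0.0745). Before subtraction Mt1 with Mt2 passed in liver (r = 0.975, adjusted p = 0.00036), and Tsc22d3 with Zbtb16 by r alone (0.769; adjusted p = 0.0484).

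**Figure D5:**
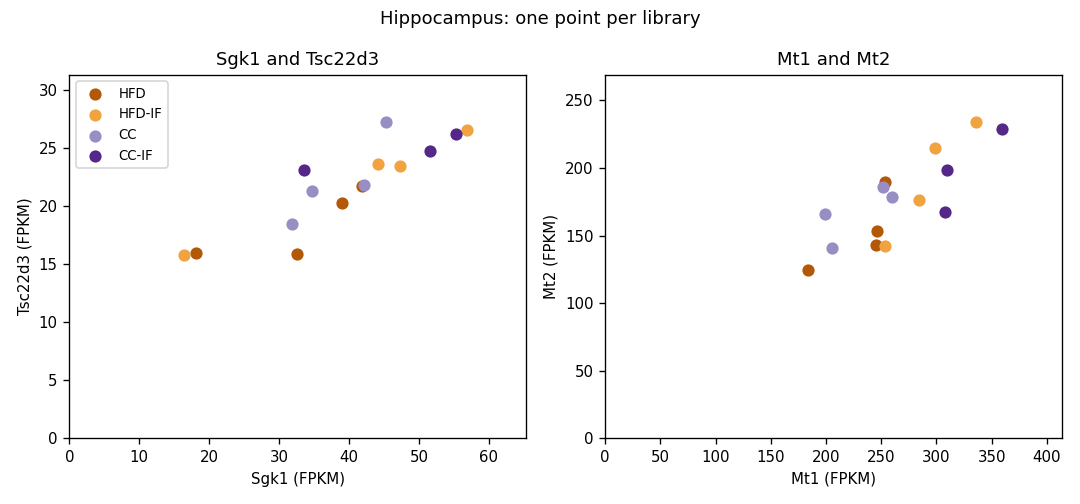
FPKM of Tsc22d3 (vertical) against Sgk1 (left panel) and of Mt2 (vertical) against Mt1 (right panel) in the 15 hippocampal libraries, one point per library, coloured by regimen, with axes starting at 0. Points run from lower left to upper right within regimens, with within-regimen r of 0.873 and 0.811.

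Genes outside the set were then ranked by the same within-regimen r with Sgk1 over 12856 other hippocampal genes, a step chosen after the values were seen and given as a description with no test. Klf15, a zinc finger factor, ranked 1, Nfkbia 2, Tsc22d3 7, Arl4d, a small GTPase, 8 and Per1 10. Klf15 measured 7.26 FPKM in HFD library 2 and 7.82 in HFD-IF library 0, the same libraries in which Sgk1 was lowest, and 11.7 in CC-IF library 1, where Sgk1 was 55.2. Nfkbia was 6.04 and 6.12 FPKM in the former 2 and 12.1 in the latter. Of the 32 other members and listed targets tested in hippocampus, 12 fell within the first 100 ranks for Sgk1 (37.5%) and 13 for Tsc22d3 (40.6%), where 100 ranks are 0.778% of all genes. For Fkbp5, Nr3c1 and Hsd11b1 the count was 0, for Zbtb16 and Mt1 3, for Pdk4 2 and for Mt2 1. In liver, where 100 ranks are 0.87% of all genes, Zbtb16 had 6 of 38 within its first 100 ranks (15.8%). Tsc22d3 and Mt1 had 4 each, Mt2 2 and Nr3c1 1, and Sgk1, Fkbp5, Hsd11b1 and Pdk4 had 0. Tat ranked 1 for Tsc22d3, and Per1 ranked 3 for Zbtb16.

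Depth and cell markers were set beside the pair. Within regimens, estimated depth had r of 0.339 with Sgk1 and 0.515 with Tsc22d3. Of the stellate cell and fibroblast list used for liver, 4 genes were tested in hippocampus (Dcn, Reln, Col1a1 and Pdgfrb). Their summed level had r of 0.647 with Sgk1 and 0.489 with Tsc22d3. Which cells these 4 genes mark in hippocampus was not tested. The level of 5 markers of brain endothelium had r of 0.452 and 0.393. For Mt1 and Mt2, r was 0.403 and 0.579 with these endothelial markers and 0.393 and 0.496 with meningeal markers. It was -0.289 and -0.124 with astrocyte markers, and 0.151 and 0.2 with estimated depth. The endothelial markers summed to 48.7 to 64.9 FPKM in HFD, 45.8 to 56.7 in HFD-IF, 49.8 to 61.3 in CC and 45.2 to 49.5 in CC-IF. Choroid plexus markers, which show how far a dissection reached the ventricle, summed to 6.72 to 57.4 FPKM over all hippocampi. They had r of -0.129 with Sgk1 and -0.223 with Tsc22d3. Their median sum was 44.8 FPKM in HFD, 9.21 in HFD-IF, 10.0 in CC and 8.50 in CC-IF, although CC and CC-IF reached 57.4 and 34.1. Meningeal markers had median sums of 36.4, 16.0, 17.2 and 18.6 FPKM in the same order. The part of this makeup in the hippocampal contrasts with HFD was not tested. The part of depth and cell makeup in the shared variation was not tested.

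Levels of the 9 genes differed between the tissues in directions that split the set. Averaged over regimens, liver minus hippocampus was 4.85 ± 0.13 for Hsd11b1, 1.58 ± 0.15 for Tsc22d3, 1.21 ± 0.19 for Pdk4 and 0.76 ± 0.07 for Nr3c1. Hippocampus was higher for Mt2 (-3.75 ± 0.20), Mt1 (-2.93 ± 0.17), Sgk1 (-1.43 ± 0.21) and Zbtb16 (-0.46 ± 0.18; adjusted p = 0.023). Fkbp5 differed by 0.20 ± 0.12 (adjusted p = 0.132). That is 8 of 9 genes called, where 88.9% of all 9939 genes tested in both tissues were called, and the median of all genes was itself 0.14 higher in liver on this scale and 0.00 after scaling by median ratios. Without HFD-IF liver library 0 the Zbtb16 difference was -0.20 and not called (adjusted p = 0.25).

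The fasting response on chow was larger in liver than in hippocampus for the 3 genes called in liver. The difference in change was 1.43 ± 0.34 for Fkbp5, 2.42 ± 0.47 for Mt1 and 2.3 ± 0.55 for Mt2 (adjusted p = 0.00496, 0.00104 and 0.00539). These were 3 of 9, with 13.8% of all genes called. For CC-IF against HFD the differences were 1.60 ± 0.34, 2.32 ± 0.47 and 2.1 ± 0.55 (adjusted p = 0.00258, 0.00214 and 0.0127; 11.3% of all genes called). Even in the fasted chow liver, Mt1 at 109.9 ± 17.1 FPKM stayed below its level in every hippocampal library, the lowest of which had 183 FPKM. The remaining 6 genes did not differ in their response by a called amount, and the interval for Nr3c1 was -0.20 to 0.62. In the other contrasts the difference between tissues was called for 0 of 9 genes: the diet switch (1.39% of all genes called), fasting on high-fat diet (1.63%), CC-IF against HFD-IF (0.584%) and the interaction (0.654%). At least 1 call appeared in the last 3 of these when a single HFD-IF liver was left out.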

How the data were processed

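The members, the related lists and several steps were chosen with earlier results of these data known. The authors deposited 1 table of FPKM. Per the submitters' processing notes reads passed through tools including Bowtie2 2.3.5.1 and TopHat2 2.1.1, with Trimmomatic 0.39 and FastQC 0.11.9 also named, and the genome was GRCm38 (mm10). How FPKM was computed from the alignments, and on which annotation, is not given in the sources used here. Per the labels' protocols, polyadenylated RNA was made into strand-specific libraries read as pairs of 125 nt. Column names gave tissue and regimen, but count from 0 where the labels count from 1, so columns were tied to groups and not to numbered samples. The series design calls samples of a group biological replicates and states 32 samples, and 29 were analysed here.

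Genes with a mean FPKM of at least 1 in a tissue were tested on log2(FPKM + 1) with limma 3.58.1 in R 4.3.3, with 1 model per tissue over the 4 regimens, an intensity trend, two-sided tests and Benjamini-Hochberg adjustment over all genes. A model of both tissues, with libraries treated as independent, tested differences between tissues in 9939 genes. All 9 members are named. From each list, up to 4 genes with the smallest p past the threshold are named in the contrasts described. Some listed genes that did not pass, such as Dusp1, Klf9, Tat and Slc30a1, are named beside them. Within-regimen correlations used 100000 permutations of libraries within regimens. Tables and plots used numpy 2.4.6, pandas 2.3.3 and matplotlib 3.10.9 in Python 3.11.15.

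Depth was estimated by reading low FPKM values as whole fragments. In liver 67.5% to 74.7%, and in hippocampus 57.7% to 72.4%, of low values lay within 0.2 of a whole number. Chance gives 40% at a fixed depth, and more here, because the depth with the highest share was taken for each library. The estimates are therefore approximate and no count test was run. No pair of libraries of a group was a repeat: r was 0.883 to 0.963 and at least 99.6% of values differed. The procedure was tested on simulated data. Coordinates and overlaps are those of GENCODE on GRCm38, matched by symbol. Promoter windows are from RefSeq on GRCm38.p6. Alternatives covered the pseudocount, the filter, scaling, the trend, the groups in the fit, a replicate block and leaving out each library.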

Additional observations from a re-analysis of the deposited data

Results flagged for a closer look

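Of 54 groups of 4 libraries examined for a library far from the others, 5 had one, and chance gives about 1 in 20. Zbtb16 was 31.03 FPKM in liver CC-IF library 0, below the 53.7 to 56.9 of the others. Mt2 was 24.37 FPKM in liver CC-IF library 2, against 35.5 to 37.0. Pdk4 was 19.08 FPKM in liver CC library 2 and 30.64 FPKM in liver CC-IF library 3, where the next highest were 8.95 and 9.21. Mt1 was 183.4 FPKM in hippocampus HFD library 3, against 245 to 254.

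The fasting change on chow differed between liver and hippocampus by 1.43 for Fkbp5, 2.42 for Mt1 and 2.3 for Mt2 (log2, liver minus hippocampus), and that of CC-IF against HFD by 1.60, 2.32 and 2.1, each called by limma in the model of both tissues. These 2 sets of differences share the CC-IF libraries.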

How the results depend on the processing

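Calls of Fkbp5, Mt1 and Mt2 for CC-IF against CC and CC-IF against HFD in liver held in all 16 alternatives of each, with changes from 1.37 to 2.06 for Fkbp5, 2.65 to 3.15 for Mt1 and 2.33 to 2.75 for Mt2. The matching differences between tissues held in all 20. No result changed direction past the threshold. Hippocampal contrasts called 0 members under every alternative run. CC-IF against HFD in liver called 4 members with only the compared groups in the fit and without HFD replicate 3, Zbtb16 being added, and Zbtb16 was also called when HFD-IF library 1 was left out of the shared spread, a setting chosen after seeing the data.

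Contrasts with the HFD-IF liver, with 0 members called in the main fit, depended on single libraries. Leaving out one library at a time, members called ranged from 0 to 3 for HFD-IF against HFD (3 without replicate 0: Hsd11b1, Mt1 and Mt2), 0 to 2 for CC-IF against HFD-IF (2 without replicate 0: Fkbp5 and Hsd11b1) and 0 to 1 for the interaction. In differences between tissues they ranged from 0 to 3 (HFD-IF against HFD), 0 to 4 (CC-IF against HFD-IF; 2 also without CC-IF replicate 0) and 0 to 2 (interaction). Where 1 HFD-IF library is left, the fit takes its spread from the remaining regimens, an assumption about a lone sample.

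A replicate block by column index called 3 members in each of the 2 liver contrasts, as without it, and 0 in hippocampus. The index was not taken to pair samples, because not every same-index correlation exceeded 0.1: same-index libraries of different regimens had r from -0.159 to 0.335 in liver and -0.153 to 0.278 in hippocampus, and 6 of 14 and 8 of 15 libraries correlated best with their own index. The median same-index r was 0.03 in liver and 0.05 in hippocampus, against -0.01 and -0.03 for other indices, a hint from the data and not the design. Depth limits Mt2 in freely fed livers, and 2 libraries limit the HFD-IF liver.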
